A study of Mus musculus with 21 samples.

Results

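The clustered protocadherins were taken as every gene of the RNA-seq table whose symbol starts with Pcdha, Pcdhb or Pcdhg, which gave 59 of 24454 genes. They comprised 15 alpha members, 22 beta members and 22 gamma members, and the gamma members were split by name into 12 of type A, 7 of type B and 3 of type C. The study compared mouse embryonic fibroblasts (MEFs) with and without RTEL1, a helicase that unwinds DNA secondary structures such as G-quadruplexes (G4). Poly(A) gene expression was read in 7 groups of 3 libraries. Rtel1f/f MEFs, in which both Rtel1 alleles are floxed, received a GFP adenovirus (Rtel1f/f +GFP, the control) or a Cre adenovirus that deletes the floxed exons (Rtel1f/f +Cre). A further group of GFP-infected Rtel1f/f MEFs was given the G4-stabilising porphyrin TMPyP4 at 10 uM for 48 h (Rtel1f/f +TMPyP4). Rtel1f/f MEFs transduced with RTEL1 carrying the C1252A and C1255A changes, called RTEL1 CA here, received GFP or Cre in the same way. Trf1f/f MEFs, with floxed alleles of Terf1 (the gene of the telomere protein TRF1), received GFP or Cre as the other deletion. All groups were adenovirus-infected and harvested at 96 h. The labels call the libraries biological replicates but do not say that they came from separate animals or cultures, so the p-values measure the spread between these libraries, which may be technical. The Rtel1f/f and Trf1f/f lines are separate cell lines, so effects of the line and of the floxed gene cannot be told apart.

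Clustered protocadherins are cadherin-like adhesion proteins whose genes lie in tandem. In the alpha and gamma clusters each member has its own promoter and a long variable exon for the extracellular and membrane-spanning parts, which is spliced to constant exons shared by the whole cluster, whereas each beta member is a gene with its own exon and the cluster has no constant exons. They are best known in neurons, where each cell uses a small set of the alternate promoters, chosen through looping of CTCF and cohesin between promoters and distant enhancers and through DNA methylation, and where homophilic recognition between matching sets lets the branches of a cell avoid each other. The C-type members at the end of the alpha and gamma clusters are controlled in a more uniform way. Fibroblasts also use these genes, and here "isoform choice" means which members of a cluster supplied its transcripts.

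The 3 clusters follow each other on mouse chromosome 18 (GRCm38). The alpha members apart from Pcdha7-g lie between positions 36930285 and 37188897. The beta members lie between 37264998 and 37521419 and the gamma members between 37661775 and 37841873. Pcdha7-g, matched by a synonym, spans 36973802 to 37841873. The constant exons made up 2860 bases in the alpha cluster, a median of 53.5% of each member's exonic length, and 2119 bases in the gamma cluster, a median of 44.8%. Reads from constant exons do not tell members apart, and RSEM, the tool that made the estimated counts, divided them among the members, so single alpha and gamma values depend on that division while the sum over a cluster does not. Among the beta members only Pcdhb21 and Pcdhb22 had exonic bases in common in the exon models read here, 455 bases or 9.67% and 6.88% of their lengths. The paper ran RSEM on RefSeq genes, whose spans for these 2 members do not overlap (37513652 to 37516363 and 37518353 to 37521419). Whether RSEM divided any reads between beta members was not tested.

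Libraries held 32069888 to 51938593 counts, with a median of 43013208. Rtel1 was at 66.2, 59.1 and 60.2 CPM (counts scaled to library size, TMM-normalised) in Rtel1f/f +GFP and at 29.9, 31.9 and 26.8 in Rtel1f/f +Cre, as gene-level counts that also cover exons outside the floxed part. In the RTEL1 CA groups, which carry the transduced gene, Rtel1 averaged 332 CPM with GFP and 265 CPM with Cre. Terf1 was at 27.9, 29.6 and 30.3 CPM in Trf1f/f +GFP and at 0.110, 0.0458 and 0.0268 after Cre. The 3 Rtel1f/f +GFP libraries stood apart from the other 12 libraries of the Rtel1f/f line on the first principal component, which held 58.39% of the variance, so the comparisons of Cre and TMPyP4 with that control are also given against RTEL1 CA +GFP. Fibroblast markers were high in all groups, but their summed level also differed between them. It was 13076 to 14035 CPM in Rtel1f/f +GFP, 4820 to 7107 after Cre, 6609 to 9587 with TMPyP4, 5679 to 8459 in RTEL1 CA +GFP and 14482 to 20817 in Trf1f/f +GFP. Markers of glia, epithelium, endothelium and blood cells stayed under 15 CPM in sum in every library. Bulk RNA cannot tell fewer cells that express a gene from less RNA per cell.

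The alpha cluster was almost silent. Summed over its 15 members, it had 4 to 8 counts per library in Rtel1f/f +GFP, 0 to 1 after Cre, 1 to 4 with TMPyP4, 1 to 2 in RTEL1 CA +GFP and 0 to 3 in RTEL1 CA +Cre. In the Trf1f/f line it had 32 to 41 counts with GFP and 37 to 39 with Cre. The groups of the Trf1f/f line thus lay above every library of the Rtel1f/f line, at a level that remained low. Most of this came from Pcdhac2, a C-type member with 173 counts over all 21 libraries. Pcdhac2 was at 0.881, 0.598 and 0.546 CPM in Trf1f/f +GFP, at 0.680, 0.619 and 0.723 in Trf1f/f +Cre, and at 0 in every Rtel1f/f +GFP library. Against a floor of 3 counts per library, it was at least 10.2-fold higher in Trf1f/f +GFP. The other C-type member, Pcdhac1, had no count in any library. The members next in total were Pcdha5 and Pcdha9, each with 23 counts, and Pcdha3 with 19, so no isoform choice could be read within this cluster.

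Of the 59 members, 37 had enough counts to be tested, namely Pcdhac2, 14 beta members and all 22 gamma members. The 22 that were not tested were 14 alpha members and Pcdhb1, Pcdhb2, Pcdhb3, Pcdhb4, Pcdhb6, Pcdhb8, Pcdhb10 and Pcdhb12. The highest mean over all 21 libraries among these 22 was 0.101 CPM and the highest single value was 12 counts. By group the highest mean was that of Pcdhb12 in Trf1f/f +GFP, at 0.229 CPM. Pcdhac2, Pcdhb11 and Pcdhb13 were low outside the Trf1f/f line, so they entered the test through the groups in which they were high, and their differences between the lines follow in part from that.

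**Figure D1:**
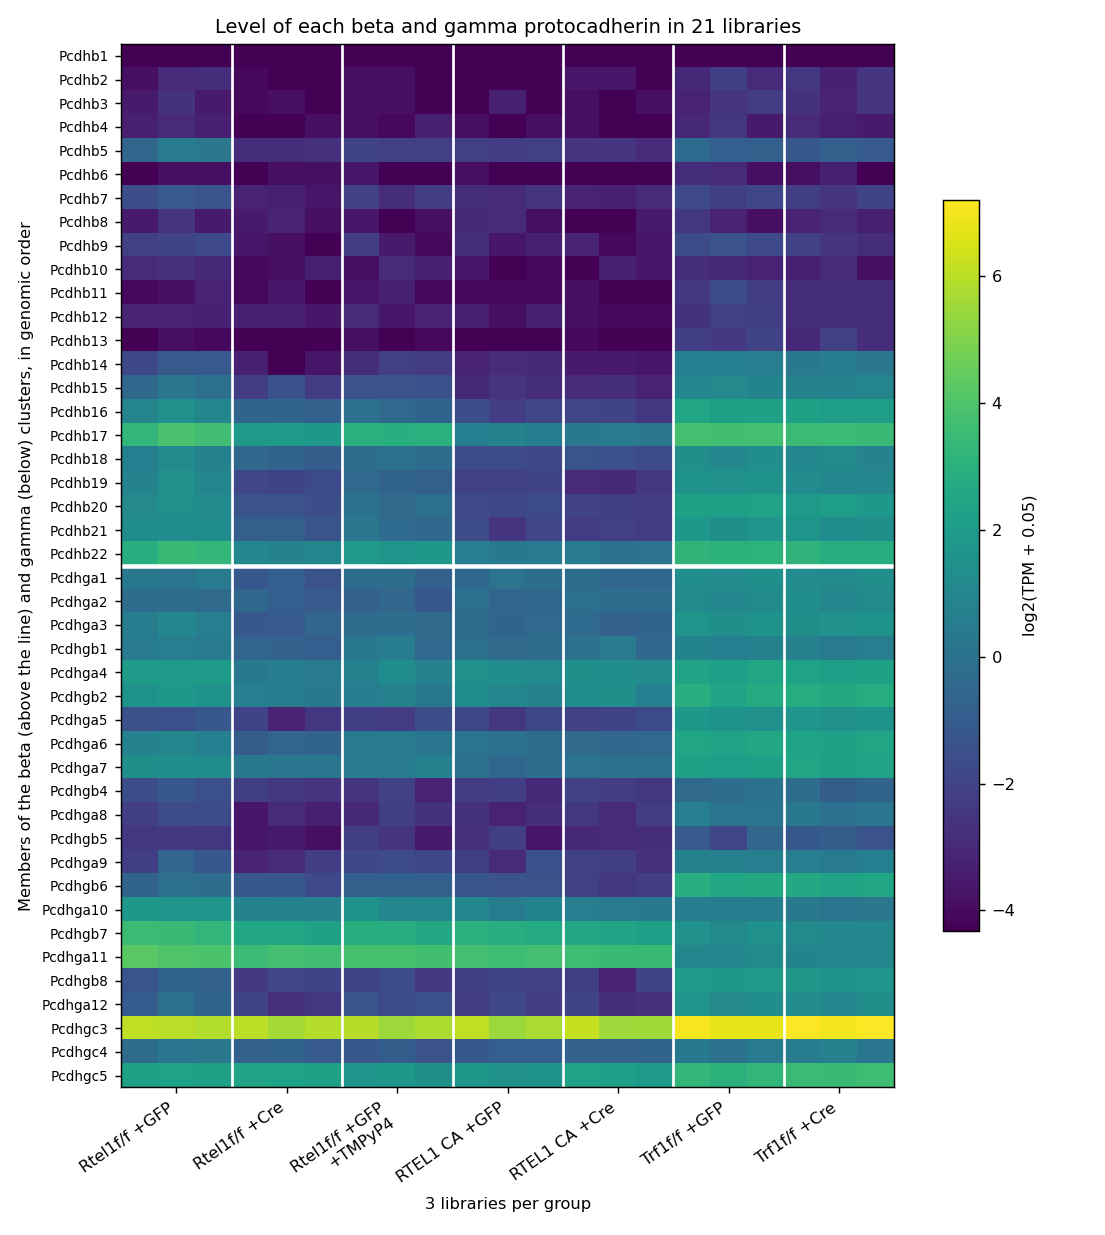
Level of each beta and gamma protocadherin (rows, in genomic order) in each of the 21 libraries (columns, 3 per group), drawn as a colour on a log2(TPM + 0.05) scale. Most beta members before Pcdhb14 are dark throughout, Pcdhgc3 is the brightest row in every library, and Pcdhgb7 and Pcdhga11 are bright in the Rtel1f/f line and darker in the Trf1f/f line.

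Within the beta cluster, transcripts came mainly from the far end, Pcdhb14 to Pcdhb22. Measured in TPM, the deposited unit that corrects for gene length, these 9 members held between 89.5% and 96.3% of the summed beta level in each group. Pcdhb17 led the group mean everywhere. Its share was 34.3% ± 0.452 (SD, n = 3) in Rtel1f/f +GFP, 44.7% ± 2.12 after Cre, 48.5% ± 2.32 with TMPyP4, 33.7% ± 3.52 in RTEL1 CA +GFP, 33.2% ± 3.23 in RTEL1 CA +Cre, 29.1% ± 0.437 in Trf1f/f +GFP and 29.4% ± 1.40 in Trf1f/f +Cre. Pcdhb22 came second in each group, with 19.2% to 30.0% of the TPM sum, and it led in 1 of the 3 RTEL1 CA +Cre libraries. The third place was not separated beyond the spread in Rtel1f/f +GFP, +Cre or +TMPyP4. Nor was it in RTEL1 CA +GFP (Pcdhb18 5.44% ± 0.278, Pcdhb20 5.24% ± 0.429) or Trf1f/f +GFP (Pcdhb16 10.9% ± 0.437, Pcdhb20 10.5% ± 0.385). It lay between Pcdhb21 (6.77% ± 1.26) and Pcdhb20 (6.65% ± 0.350) in Rtel1f/f +GFP, between Pcdhb18 (6.98% ± 0.914) and Pcdhb16 (6.95% ± 0.233) after Cre, and between Pcdhb20 (5.26% ± 0.325), Pcdhb18 and Pcdhb21 with TMPyP4. The effective number of members (the inverse Simpson number, which equals the member count when all have equal shares) was 4.83 ± 0.128 in Rtel1f/f +GFP, 3.74 ± 0.178 after Cre, 3.44 ± 0.251 with TMPyP4, 4.80 in RTEL1 CA +GFP and 6.29 ± 0.0653 in Trf1f/f +GFP. Beta use was thus narrower after Cre and with TMPyP4 than in their shared control and widest in the Trf1f/f line.

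**Figure D2:**
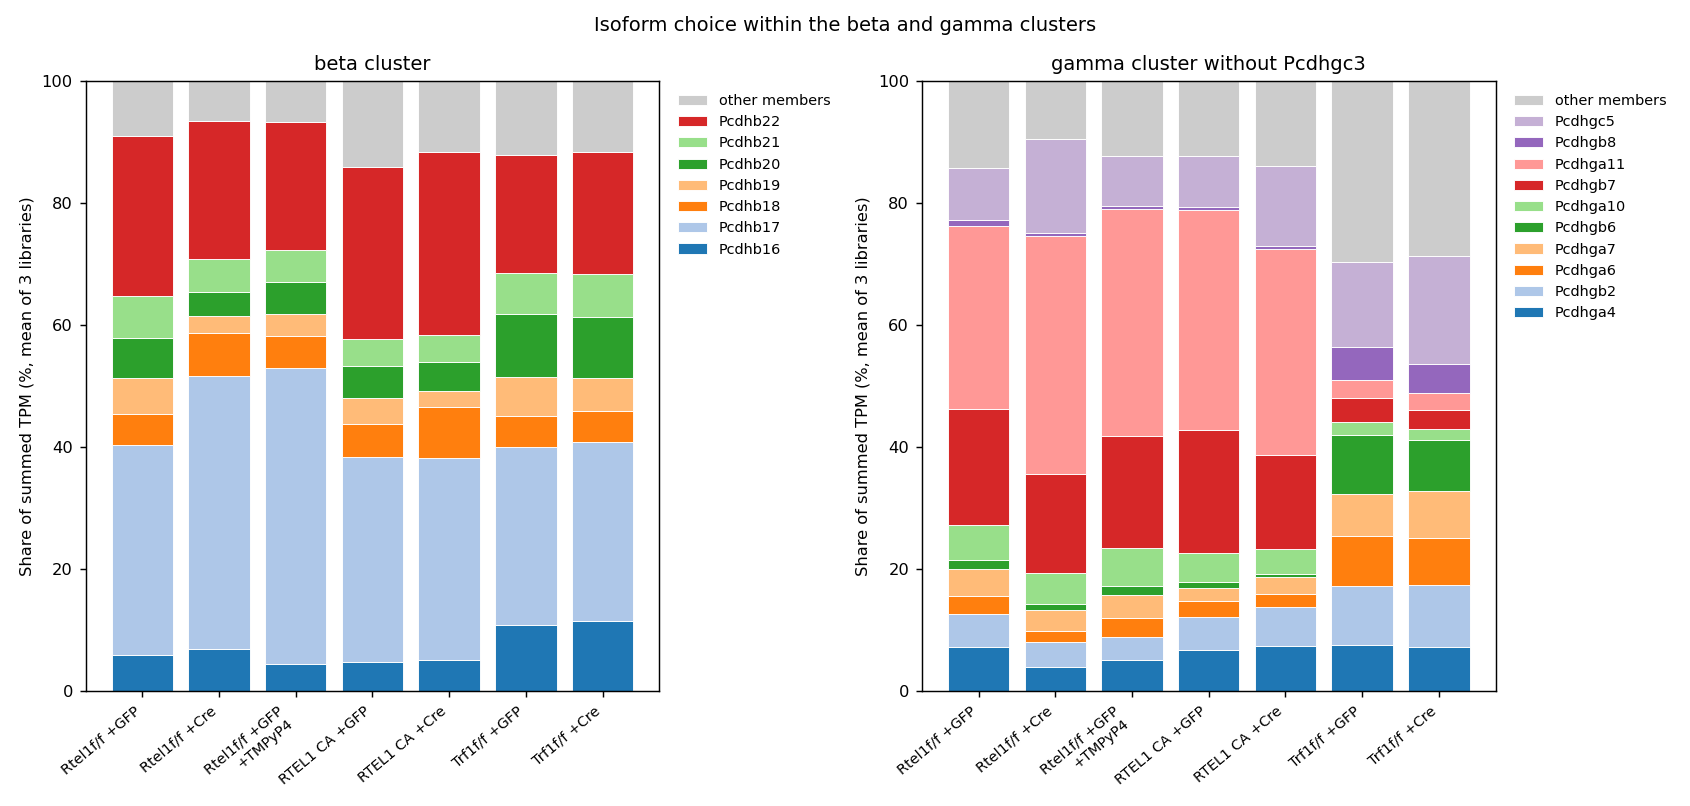
Share of each cluster's summed TPM held by its leading members in each group (stacked bars, means of 3 libraries), for the beta cluster and for the gamma cluster without Pcdhgc3, with the remaining members in grey. Pcdhb17 and Pcdhb22 fill the largest beta segments in every group, while Pcdhga11 and Pcdhgb7 fill the largest gamma segments in the 5 groups of the Rtel1f/f line and are small in the Trf1f/f line.

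In the gamma cluster a single C-type member, Pcdhgc3, supplied most of the transcripts. It held 53.1% ± 1.15 of the TPM sum in Rtel1f/f +GFP, 64.0% ± 4.01 after Cre, 58.9% ± 4.64 with TMPyP4, 60.1% ± 3.73 in RTEL1 CA +GFP, 61.8% ± 4.24 in RTEL1 CA +Cre, 64.0% ± 2.02 in Trf1f/f +GFP and 67.8% ± 0.533 in Trf1f/f +Cre. With Pcdhgc3 set aside, Pcdhga11 led all 5 groups of the Rtel1f/f line, at 30.0% of the remaining TPM in Rtel1f/f +GFP, 39.0% after Cre and 37.2% with TMPyP4. Pcdhgb7 followed with 15.5% to 20.1% in these groups. In Rtel1f/f +Cre it was not separated beyond the spread from Pcdhgc5 (16.3% ± 1.59 and 15.4% ± 0.287). Pcdhgc5 held 8.58% in Rtel1f/f +GFP and 8.11% with TMPyP4, and 8.36% and 13.2% in RTEL1 CA +GFP and +Cre. In the Trf1f/f line neither Pcdhga11 nor Pcdhgb7 led. Pcdhgc5 came first there, at 13.9% with GFP and 17.7% with Cre. Pcdhgb2 and Pcdhgb6 came next, and Pcdhga11 held 3.0% and 2.8%. The effective number of members without Pcdhgc3 was 6.65 in Rtel1f/f +GFP, 4.74 after Cre, 5.22 with TMPyP4, 5.23 in RTEL1 CA +GFP, 5.86 in RTEL1 CA +Cre, 14.1 in Trf1f/f +GFP and 12.6 in Trf1f/f +Cre. Members with a mean of at least 1 TPM numbered 13 in Rtel1f/f +GFP, 8 after Cre, 10 with TMPyP4, 7 in each RTEL1 CA group and 20 in each Trf1f/f group.

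The first comparison asked what deletion of Rtel1 does. The beta cluster was the part that differed most. Its summed level was 49.0, 68.4 and 60.0 CPM in Rtel1f/f +GFP and 16.6, 16.2 and 15.8 CPM in Rtel1f/f +Cre, with no overlap between the groups. That is 59.2 ± 9.74 against 16.2 ± 0.37 CPM (SD, n = 3), a ratio of -1.87 on the log2 scale, or 27.4% of the control. The summed gamma level was 269 ± 15.9 CPM in the control and 244 ± 29.0 after Cre, and these groups overlapped. Without Pcdhgc3, however, the gamma sum was 129.7, 126.0 and 120.3 CPM in the control and 87.8, 85.4 and 86.9 after Cre, and the groups did not overlap (-0.53 on the log2 scale, 69.2% of the control). By type, the log2 ratio was -0.55 for the gamma A sum, -0.85 for the gamma B sum and 0.13 for the gamma C sum, the last with overlapping groups.

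**Figure D3:**
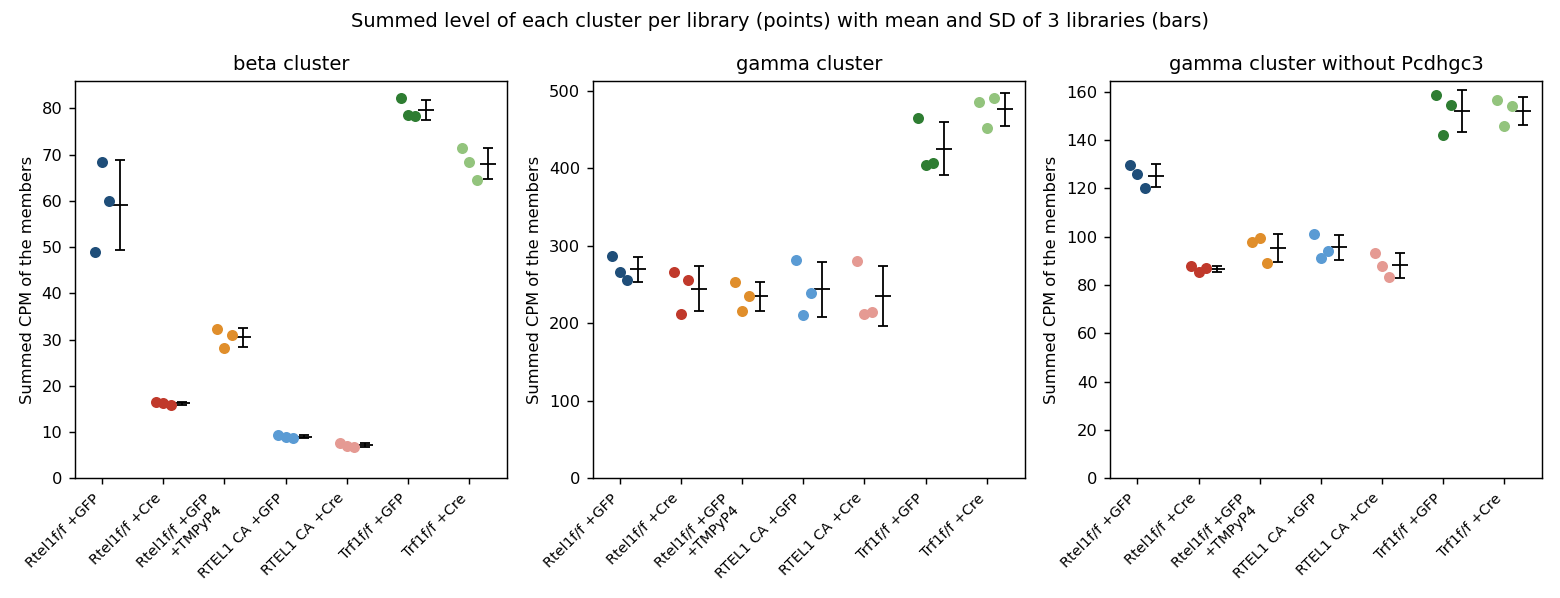
Summed CPM of the beta members, of the gamma members and of the gamma members without Pcdhgc3 in each of the 21 libraries (points), with the mean and SD of each group beside them (bars, n = 3). The beta sums of Rtel1f/f +GFP (49.0 to 68.4 CPM) lie above those of the 4 other groups of that line. Its gamma sums overlap with those of Rtel1f/f +Cre and of the RTEL1 CA groups but lie above those of Rtel1f/f +TMPyP4. Without Pcdhgc3, Rtel1f/f +GFP (120.3 to 129.7 CPM) again lies above those 4 groups. The Trf1f/f groups have the highest means in all panels, but in the beta panel Rtel1f/f +GFP replicate 2 (68.4 CPM) lies above 2 of the Trf1f/f +Cre libraries.

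Among the 37 tested members, 29 passed edgeR's quasi-likelihood test at a Benjamini-Hochberg adjusted p of at most 0.01 (two-sided, 13719 genes tested), 1 higher and 28 lower after Cre. Of all genes tested, 43.0% were called in this comparison, 22% higher and 21% lower. The libraries of the groups did not overlap for 30 of the 37 members and for 61.4% of all genes tested. The calls covered 12 of 14 beta members, all lower, 10 of 12 gamma A members and 5 of 7 gamma B members, all lower, and 1 gamma C member in each direction. The median log2 fold change was -2.38 over the tested beta members (-2.11 with members at 0 in all libraries of a group set to the floor), -1.28 over gamma A and -0.94 over gamma B, against -0.03 over all genes.

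Pcdhb17, the leading beta member, was at 15.6, 21.8 and 19.8 CPM in Rtel1f/f +GFP and at 6.55, 7.12 and 6.66 after Cre. Pcdhb22 was at 11.0, 15.3 and 14.4 CPM and then at 3.36, 2.78 and 3.44. Pcdhb20 was at 3.36, 4.23 and 3.83 CPM and then at 0.653, 0.620 and 0.573. In none of these did the groups overlap, and Rtel1f/f +GFP replicate 1 was the lowest of its group in all 3. The log2 fold changes were -1.49 (SE 0.10, edgeR Benjamini-Hochberg adjusted p = 2.4e-09) for Pcdhb17, -2.09 (SE 0.14, adjusted p = 2.3e-09) for Pcdhb22 and -2.62 (SE 0.13, adjusted p = 4.7e-11) for Pcdhb20. Larger falls were those of other members. Pcdhb5 fell by 3.14 (SE 0.27), Pcdhb19 by 2.98 (SE 0.19) and Pcdhb14 by 3.48 (SE 0.44) on the log2 scale. Pcdhb5 was at 1.11, 2.06 and 1.98 CPM in the control and at 0.186, 0.174 and 0.218 after Cre. The members that were not called, Pcdhb11 and Pcdhb13, named here after their values were seen, reached at most 0.1002 CPM in either group. Pcdhb17 had the smallest fall but one among the called beta members.

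In the gamma cluster, the members that supplied most transcripts moved least. Pcdhgc3 was at 157, 140 and 135 CPM in the control and at 178, 126 and 169 after Cre. Pcdhga11 was at 43.3, 35.9 and 35.8 CPM and then at 32.3, 34.7 and 35.8. Both members overlapped between the groups, and neither was called by edgeR (log2 fold change 0.13, Benjamini-Hochberg adjusted p = 0.53, and -0.16, adjusted p = 0.088). Pcdhgb7, next in level, was at 25.2, 23.6 and 21.2 CPM and then at 15.45, 13.003 and 12.72, which did not overlap (-0.76, SE 0.10, edgeR adjusted p = 7.7e-06). The largest called falls among gamma members of at least 0.5 CPM were those of Pcdhga12 (-1.90, SE 0.30), Pcdhga8 (-1.89, SE 0.37), Pcdhga9 (-1.79, SE 0.45) and Pcdhga3 (-1.52, SE 0.18). The call of Pcdhga9 was lost in 4 alternative fits, with edgeR adjusted p up to 0.026. Pcdhga4, at a higher level (-1.39, SE 0.12), was at 9.06, 8.67 and 8.55 CPM in the control and at 3.17, 3.50 and 3.36 after Cre. The remaining C-type members parted. Pcdhgc5 was at 10.8, 11.3 and 10.7 CPM and then at 13.98, 13.05 and 13.51, the single rise among the members (0.31, SE 0.09, edgeR adjusted p = 0.0086), and it lost its call in 6 alternative fits, with adjusted p up to 0.030. Pcdhgc4 was at 1.96, 2.57 and 2.84 CPM and then at 1.49, 1.59 and 1.34 (-0.74, SE 0.18, edgeR adjusted p = 0.0017), and its call was lost in 4 alternative fits, with adjusted p up to 0.018.

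TMPyP4, read against the same control libraries, left the beta sum at 32.3, 28.3 and 31.0 CPM, or 30.5 ± 2.06, below every control library and above every Rtel1f/f +Cre library. This was 51.6% of the control (-0.96 on the log2 scale). The gamma sum was 235 ± 19.0 CPM (-0.20) and did not overlap with the control, and without Pcdhgc3 it was 95.4 ± 5.63 CPM (-0.39). Of the 37 tested members 20 were called, all lower, where 30.0% of all genes were called, 16.6% higher and 13.4% lower. The groups did not overlap for 25 of the 37 members and for 57.8% of all genes. The 20 called members were 11 beta members, 3 gamma A members, 4 gamma B members and 2 gamma C members. The median log2 fold change was -1.25 over the tested beta members and -0.52 over the gamma members.

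Pcdhb17 was at 14.1, 13.1 and 14.9 CPM with TMPyP4, just below the lowest control library (-0.44, SE 0.10, edgeR Benjamini-Hochberg adjusted p = 0.0017), and it was not called in 4 alternative fits, with adjusted p up to 0.023. Pcdhb22 was at 6.09, 4.94 and 6.04 CPM (-1.26, adjusted p = 2.0e-06). Pcdhb5 was at 0.380, 0.337 and 0.358 CPM (-2.26, SE 0.24, adjusted p = 1.7e-06). These groups did not overlap with the control, and the falls of the called beta members ran from -2.26 for Pcdhb5 to -0.44 for Pcdhb17. Among gamma members, Pcdhgb8 (-1.13), Pcdhgb2 (-0.93) and Pcdhga4 (-0.89) fell, and the call of Pcdhgb8 was lost in 5 alternative fits, with edgeR adjusted p up to 0.036. Pcdhgc4 was at 1.046, 1.301 and 0.979 CPM (-1.15, SE 0.18, edgeR adjusted p = 7.7e-05). Pcdhgc5, which was higher after Cre, was at 7.86, 8.74 and 7.04 CPM with TMPyP4, below the control (-0.47, SE 0.09, edgeR adjusted p = 0.00062). Pcdhga11 (-0.09, adjusted p = 0.39) and Pcdhgc3 (-0.05, adjusted p = 0.84) were not called.

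**Figure D4:**
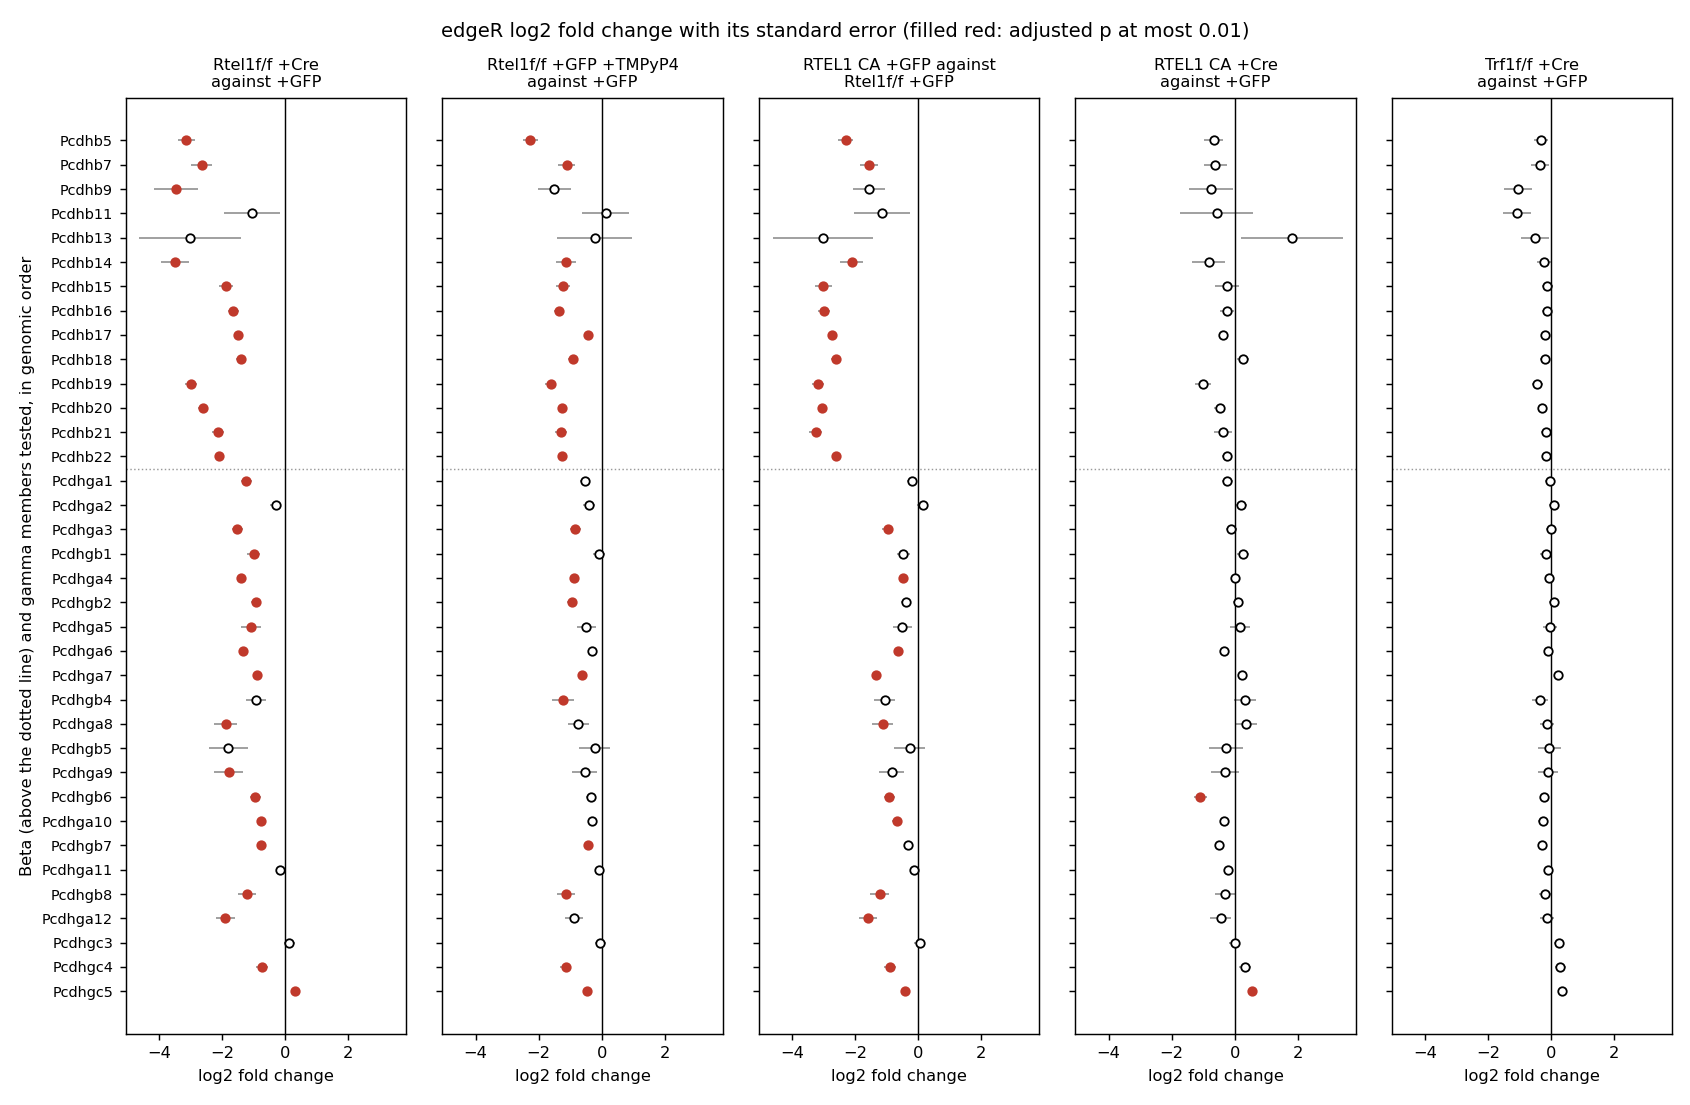
Log2 fold change of each tested beta and gamma member (points, with bars of 1 SE, filled where the adjusted p is at most 0.01) in 5 comparisons, members in genomic order. The first 3 panels share the Rtel1f/f +GFP libraries, so likeness between them is not independent. Filled points crowd the beta rows of these 3 panels, Pcdhga11 and Pcdhgc3 lie near 0 in each of them, and the Cre panels of RTEL1 CA and Trf1f/f hold 2 and 0 filled points.

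Set directly against each other, Rtel1f/f +Cre and Rtel1f/f +TMPyP4 differed in 12 of the 37 tested members, 11 of them lower after Cre, where 15.2% of all genes were called, 6.13% higher and 9.09% lower. For 22 members, and for 37.8% of all genes, the libraries of both groups did not overlap. The beta sum differed by -0.91 on the log2 scale with no overlap. The members lower after Cre included 7 beta members, among them Pcdhb20 (-1.35, edgeR Benjamini-Hochberg adjusted p = 1.4e-06), Pcdhb19 (-1.35, adjusted p = 9.7e-05) and Pcdhb17 (-1.05, adjusted p = 8.0e-07). In the gamma cluster Pcdhga6 was at 1.24, 1.54 and 1.61 CPM after Cre and at 3.08, 3.06 and 2.77 CPM with TMPyP4 (-1.02, edgeR adjusted p = 5.7e-06). Pcdhgc5 was the single member higher after Cre (0.78, SE 0.09, edgeR adjusted p = 8.3e-06), with no overlap between the groups. Samples of the same replicate number deviated together in this pair of groups, and fitted with a block for replicate number, 14 members were called. The count is sensitive to the libraries: it was 6 when the fit held these 2 groups only, and 7 without Rtel1f/f +Cre replicate 2.

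The direction of these results differed with the group they were set against. RTEL1 CA +GFP, the same line with the transduced protein and no Cre, had beta sums of 9.35, 8.82 and 8.70 CPM, or 8.96 ± 0.34, which was 6.61-fold lower than Rtel1f/f +GFP (-2.72 on the log2 scale) and also below every Rtel1f/f +Cre and +TMPyP4 library. Against Rtel1f/f +GFP, 22 of the 37 tested members were called, all lower, 11 in each of the beta and gamma clusters, where 44.7% of all genes were called, 22.6% higher and 22.1% lower, and 28 members and 63.6% of all genes did not overlap. Pcdhb17 was at 2.78, 3.15 and 2.63 CPM (-2.74, SE 0.11, edgeR Benjamini-Hochberg adjusted p = 3.9e-12) and Pcdhb21 at 0.388, 0.190 and 0.343 CPM (-3.26, SE 0.22, adjusted p = 1.9e-09). In the gamma cluster Pcdhga12 (-1.60), Pcdhga7 (-1.35) and Pcdhgc4 (-0.90) were lower, while Pcdhga11 was at 35.2, 33.2 and 36.7 CPM and was not called. The transduction and the RTEL1 changes cannot be told apart from each other in this group. It is not a matched control for Rtel1f/f +Cre or +TMPyP4, since those comparisons also differ in the transduced gene.

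Read against RTEL1 CA +GFP, the beta sum was therefore higher after Cre (0.85 on the log2 scale) and higher with TMPyP4 (1.77), the reverse of the direction against Rtel1f/f +GFP. After Cre 9 members were called, 5 higher, including Pcdhb16, Pcdhb17, Pcdhb18 and Pcdhb21, and 4 gamma members lower, where 7.76% of all genes were called, 3.80% higher and 3.95% lower. With TMPyP4 9 members were called, all higher, 8 of them beta members, where 17.0% of all genes were called, 9.94% higher and 7.07% lower. The 4 other groups of the line thus all had less beta expression than Rtel1f/f +GFP, in the order TMPyP4, Cre, RTEL1 CA +GFP and RTEL1 CA +Cre, with no overlap between neighbours in that order. The summed fibroblast markers were likewise highest in Rtel1f/f +GFP within this line. Against Rtel1f/f +GFP, 5 of the 10 markers on that list were called lower and 3 higher after Cre. In that comparison 43.0% of all genes were called, 22% higher and 21% lower. The part of these markers in the beta result was not tested.

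Cre in the presence of RTEL1 CA moved few members. Its beta sum, given above with GFP, was 7.59, 7.02 and 6.78 CPM after Cre, which did not overlap (79.6% of the control, -0.33 on the log2 scale). Of the 37 tested members 2 were called, where 1.09% of all genes were called, 0.525% higher and 0.569% lower. Libraries did not overlap for 13 members and for 16.2% of all genes. Pcdhgb6 was at 0.969, 0.895 and 0.891 CPM with GFP and at 0.470, 0.344 and 0.469 with Cre (-1.09, SE 0.20, edgeR Benjamini-Hochberg adjusted p = 0.0044). Pcdhgc5 was at 9.11, 7.35 and 7.95 CPM with GFP and at 12.8, 11.9 and 10.8 with Cre (0.54, SE 0.09, adjusted p = 0.0030). Neither pair of groups overlapped, but the calls were lost in 7 and 5 alternative fits, and 0 to 1 members were called when 1 library was left out. Same-numbered libraries deviated together here too, and fitted with a block for replicate number, 3 members were called. At an unadjusted p under 0.05, 9 members passed, among them Pcdhb19 (-1.01, edgeR adjusted p = 0.041) and Pcdhgb7 (-0.50, adjusted p = 0.013). The share of all genes at that threshold is not given here, so this count is not read as a result about the members.

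Deletion of Terf1 left the cluster close to its control. The beta sum was 82.2, 78.5 and 78.3 CPM in Trf1f/f +GFP and 71.4, 68.3 and 64.5 CPM in Trf1f/f +Cre, which did not overlap (85.5% of the control, -0.23 on the log2 scale). The gamma sum was 425 ± 34.0 CPM and 476 ± 21.4 CPM. None of the 37 tested members was called by edgeR, where 3.42% of all genes were called, 2.65% higher and 0.765% lower. For 11 members and 26.9% of all genes the libraries did not overlap. At an unadjusted p under 0.05, 7 members passed, a count that is not read as a result, since the share of all genes is not given. DESeq2 called 1 member. Pcdhgc5 had the smallest adjusted p of the members. It was at 22.2, 19.8 and 22.3 CPM in the GFP libraries, then 26.9, 26.7 and 28.2 after Cre (0.35, edgeR Benjamini-Hochberg adjusted p = 0.025). Pcdhgc5 thus lay above its own GFP control, without overlap, in the Cre libraries of each of the 3 settings, and was called in Rtel1f/f and RTEL1 CA.

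The difference between the Cre effects was tested as an interaction. The Cre effect in Rtel1f/f without transduced RTEL1 was lower than that with RTEL1 CA for 19 of the 37 tested members, 10 beta and 9 gamma, where 25.1% of all genes were called, 12.8% higher and 12.3% lower. It was lower than the Cre effect in the Trf1f/f line for 20 members, 11 beta and 9 gamma, where 30.2% of all genes were called, 15.8% higher and 14.5% lower. No member differed in the other direction. For Pcdhb17 the log2 difference of Cre effects was -1.13 from RTEL1 CA and -1.28 from the Trf1f/f line, for Pcdhb20 it was -2.14 and -2.33, and for Pcdhga4 it was -1.39 and -1.31. These differences use the Rtel1f/f +GFP libraries, the group that stood apart. The beta sum of RTEL1 CA +GFP (8.96 CPM) was already below that of Rtel1f/f +Cre (16.2 CPM). The Cre effect on the beta cluster with RTEL1 CA was thus read from a lower start, and the part of this in the differences was not tested.

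In the gamma cluster, the largest change of isoform choice lay between the lines. In Trf1f/f +GFP against Rtel1f/f +GFP, 28 of the 37 tested members were called, 24 higher and 4 lower, where 54.9% of all genes were called, 30.3% higher and 24.5% lower. No overlap was seen for 31 members and for 72.6% of all genes. The tested members include Pcdhac2, which was called higher, Pcdhb11 and Pcdhb13. These entered the test through their levels in the Trf1f/f line, so the counts of higher members follow in part from the filter. The beta sum was 78.3 to 82.2 CPM against 49.0 to 68.4 CPM, higher with no overlap (0.43 on the log2 scale), and 6 beta members were higher and 1 lower. Pcdhb16 was at 13.9, 12.6 and 12.3 CPM in Trf1f/f +GFP against 4.81, 6.60 and 4.93 in Rtel1f/f +GFP (1.25), and Pcdhb20 at 7.72, 7.93 and 7.87 CPM against 3.36, 4.23 and 3.83 (1.04). The leading members Pcdhb17 (0.14, edgeR Benjamini-Hochberg adjusted p = 0.22) and Pcdhb22 (-0.07, adjusted p = 0.67) were not called. Pcdhb5 was lower (-0.77, adjusted p = 0.0036), a call lost in 6 alternative fits.

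Among gamma members 17 were higher and 3 lower, and the sum was 0.66 higher on the log2 scale. Pcdhga11 was at 43.3, 35.9 and 35.8 CPM in Rtel1f/f +GFP and at 4.22, 4.78 and 4.91 in Trf1f/f +GFP. Pcdhgb7 was at 25.2, 23.6 and 21.2 CPM and at 6.10, 5.06 and 5.95. Pcdhga10 was at 7.63, 6.50 and 7.11 CPM and at 3.02, 3.15 and 3.00. These 3 members are consecutive in the cluster, did not overlap between the lines, and were 8.26-fold (Pcdhga11, edgeR Benjamini-Hochberg adjusted p = 3.4e-15) and 4.09-fold (Pcdhgb7, adjusted p = 1.6e-11) lower and -1.21 on the log2 scale (Pcdhga10, adjusted p = 2.9e-07) in the Trf1f/f line. Their immediate neighbours went the other way. Pcdhgb6, just before them, was at 1.336, 1.973 and 1.903 CPM in Rtel1f/f +GFP and at 16.33, 13.95 and 14.54 in Trf1f/f +GFP, 8.60-fold higher (3.10, SE 0.15, edgeR adjusted p = 4.1e-12). Pcdhgb8, just after them, was at 0.779, 1.32 and 1.28 CPM and at 8.63, 8.09 and 7.96 (2.86). Pcdhga5 was at 0.690, 0.617 and 0.881 CPM and at 7.422, 6.896 and 6.203 (3.22). The C-type members Pcdhgc3 (0.92, adjusted p = 0.00014) and Pcdhgc5 (0.97, adjusted p = 3.6e-08) were higher and Pcdhgc4 was not called (0.19).

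**Figure D5:**
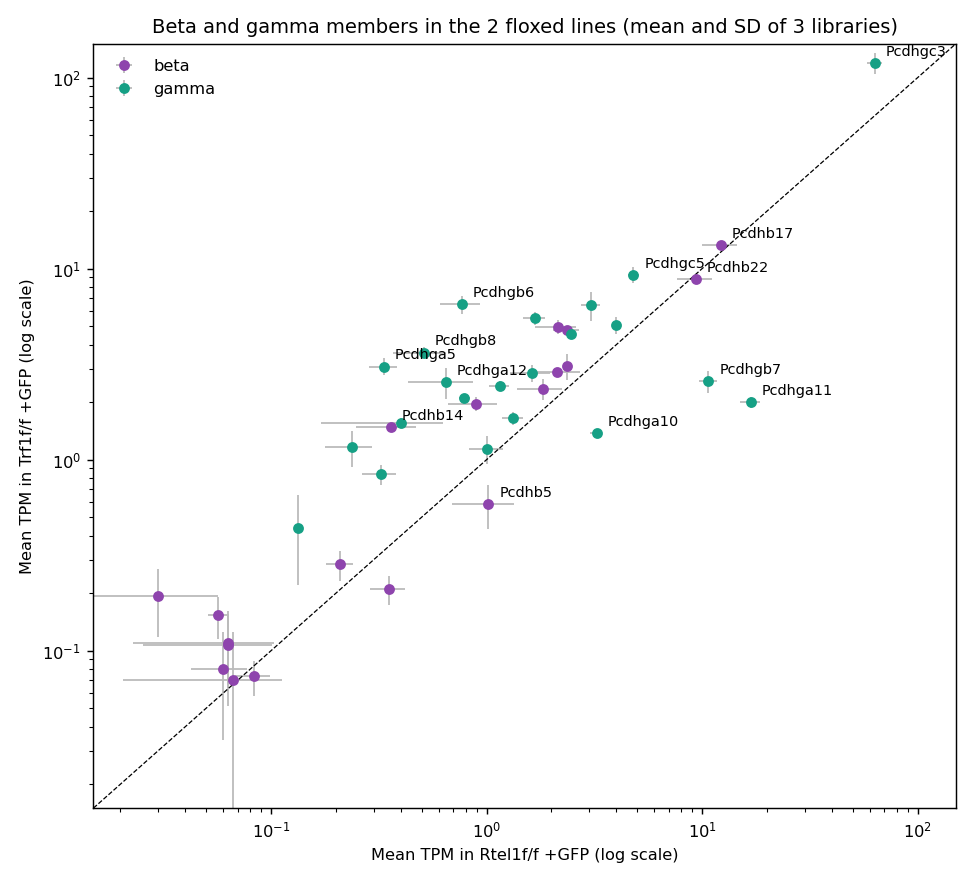
Mean TPM of each beta and gamma member in Rtel1f/f +GFP (horizontal) against Trf1f/f +GFP (vertical), both on a log scale, with SD bars (n = 3 libraries each) and a dashed line of equality. Pcdhga11, Pcdhgb7 and Pcdhga10 lie below the line, Pcdhgb6, Pcdhgb8 and Pcdhga5 lie far above it, and Pcdhb17 and Pcdhb22 lie close to it.

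Expressed as the share of TPM that would have to move between members to turn the choice of a group into that of another, the gamma cluster without Pcdhgc3 differed by 46.0% between Rtel1f/f +GFP and Trf1f/f +GFP. The same measure was 16.02% between Rtel1f/f +GFP and +Cre, 8.4% between +GFP and +TMPyP4, 8.1% between Rtel1f/f +GFP and RTEL1 CA +GFP, and 5.9% between Trf1f/f +GFP and +Cre. The largest difference between replicates was 6.8% in Rtel1f/f +GFP, 4.2% in Trf1f/f +GFP and 3.6% in Trf1f/f +Cre. In the beta cluster the measure was 14.2% from Rtel1f/f +GFP to +Cre, 14.7% to +TMPyP4, 8.0% to RTEL1 CA +GFP and 14.4% to Trf1f/f +GFP, where replicates of RTEL1 CA +GFP were up to 10.7% apart and those of Rtel1f/f +GFP up to 4.5%. Neuronal markers also differed between the lines, with summed levels of 27.9 to 43.5 CPM in the Rtel1f/f line and 193 to 225 CPM in the Trf1f/f line. The sum was carried by Map2 and Stmn2, while Rbfox3, Snap25, Dcx and Nefl were at or near 0. Of the 10 markers listed, 4 had a mean of at least 1 CPM in each Trf1f/f group and 5 in each group of the Rtel1f/f line. The part of the neuronal markers in the isoform difference was not tested.

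Genes that act on the clusters were called in both directions after Cre. Of 21 regulators of clustered protocadherin promoters, all tested, 3 rose and 4 fell after Cre in Rtel1f/f, where 43.0% of all genes were called. The cohesin release factor Wapl (0.40), the silencing factor Smchd1 (0.32) and the cohesin cofactor Pds5a (0.29) rose on the log2 scale. Those that fell included the DNA methyltransferase Dnmt3a (-0.57), the cohesin loader Mau2 (-0.37) and the cohesin subunit Stag1 (-0.31). Ctcf (0.02, edgeR Benjamini-Hochberg adjusted p = 0.83) and the cohesin subunit Rad21 (-0.05, adjusted p = 0.68) were not called. With TMPyP4, where 30.0% of all genes were called, Pds5a (0.34) and Zfp143 (0.33) rose and Stag1 (-0.30) fell. Zfp143 is a zinc-finger factor found with CTCF at chromatin loops. Stag1 was also the single call after Cre with RTEL1 CA (-0.34), where 1.09% of all genes were called. None was called after Cre in the Trf1f/f line, where 3.42% of all genes were called. Between the lines, where 54.9% of all genes were called and 24.5% were lower, 15 of the 21 were lower in Trf1f/f +GFP, among them Dnmt3b (-0.87), Rad21 (-0.70) and Ctcf (-0.27), and Wapl (0.53) was higher.

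Genes flanking the clusters were also read. Of 15 neighbours, 14 were tested, and after Cre in Rtel1f/f 6 rose and 2 fell, with a median log2 fold change of 0.25, where 43.0% of all genes were called, 22% higher and 21% lower. Wdr55 (0.90), a ribosome biogenesis gene, Hars (0.79), the histidyl-tRNA synthetase, and Zmat2 (0.61) and Ik (0.47), both of the spliceosome, rose, while Fchsd1 (-0.83) and Tmco6 (-0.43) fell. With TMPyP4, where 30.0% of all genes were called, Hars (0.59), Wdr55 (0.57) and Ik (0.47) rose and none fell. None was called after Cre with RTEL1 CA or in the Trf1f/f line, where 1.09% and 3.42% of all genes were called.

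Of 12 protocadherins outside the clusters 10 were tested. After Cre in Rtel1f/f, where 43.0% of all genes were called, Pcdh1 rose (2.93) and Pcdh9 fell (-0.83). Pcdh1 was near the floor, at 0.022, 0.021 and 0.040 CPM in Rtel1f/f +GFP and at 0.350, 0.149 and 0.191 after Cre. With TMPyP4, where 30.0% of all genes were called, Pcdh9 fell (-0.52). After Cre in Trf1f/f, where 3.42% were called, Pcdh20 rose (0.84). Between the lines, where 54.9% of all genes were called, 30.3% higher and 24.5% lower, 6 were higher in Trf1f/f +GFP and Pcdh18 was lower (-1.46). Of 13 intracellular partners of clustered protocadherins, 6 rose and 2 fell after Cre in Rtel1f/f, against the same 43.0% of all genes called. The kinases Ptk2b (1.77) and Ptk2 (0.28), which protocadherin cytoplasmic domains restrain, and the actin regulators Abi1 (0.55) and Rac1 (0.40) rose, while Marcks (-0.99), a membrane-bound actin regulator, and Adam10 (-0.24), a protease that sheds protocadherin ectodomains, fell. With TMPyP4, where 30.0% of all genes were called, 5 rose and 2 fell. With RTEL1 CA, where 1.09% of all genes were called, none was called after Cre. In Trf1f/f 1 fell after Cre.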

How the data were processed

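With the versions given in the submitters' processing notes, the authors trimmed poly(A)-selected stranded reads with cutadapt 1.9.1 and aligned and quantified them against mm10 with STAR 2.5.2a and RSEM 1.3.0. The deposited table held RSEM expected counts, all whole numbers, and TPM for 24454 genes in 21 libraries. The authors tested with DESeq2 (1.28.0 in those notes). Groups came from the sample titles. The members, the gene lists and the tests were chosen with earlier results of these data known. Here counts were tested with edgeR 4.0.16 in R 4.3.3 (TMM, filterByExpr, robust quasi-likelihood, 1 coefficient per group, 14 residual degrees of freedom), which kept 13719 genes. A call is a Benjamini-Hochberg adjusted p of at most 0.01, two-sided. Levels are CPM with TMM factors, and shares are of the deposited TPM. Sums, shares and effective numbers carry no p-value. DESeq2 1.42.0 was an alternative. The fit was checked on simulated data. Totals of 32069888 to 51938593 counts per library set the precision.

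Members were named by rule: the 4 highest by TPM in each cluster, up to 4 called rises and 4 called falls per comparison at a mean of at least 0.5 CPM in 1 group, every C-type member, and every member called in an interaction. Others were named to complete a count after their values were seen. The pairing of replicate numbers was checked by correlating deviations from the group means over 11840 genes. All 3 pairs were above 0.1 for Rtel1f/f +Cre with TMPyP4 (0.72, 0.76 and 0.41) for RTEL1 CA +Cre with +GFP (0.86, 0.84 and 0.42), and for RTEL1 CA +GFP with Rtel1f/f +Cre (0.78, 0.81 and 0.195) and TMPyP4 (0.78, 0.69 and 0.30), and not for the other comparisons of groups. Alternatives changed the normalisation, test, filter, libraries, block, threshold and control, and left out each library. The promoters and sequences of the members were not analysed here. The values of 1 gene of the regulator list are not reported here.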

Additional observations from a re-analysis of the deposited data

Results flagged for a closer look

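In 39 cases the Cre effect on a member, tested as an interaction by edgeR, was called different between Rtel1f/f and another setting. Every difference was negative, meaning a deeper fall, or a fall in place of no called change, in Rtel1f/f. All of them rest on the 3 Rtel1f/f +GFP libraries that stood apart. For those against RTEL1 CA, the beta sum before Cre was also lower in RTEL1 CA +GFP (8.96 CPM) than in Rtel1f/f +GFP (59.2 CPM). No critical value of Dixon's test was applied, since groups of 3 are not tested, and no data outside the main measurement were used.

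Against RTEL1 CA, the log2 difference of Cre effects among beta members was -2.47 for Pcdhb5, -2.03 for Pcdhb7, -2.66 for Pcdhb14, -1.40 for Pcdhb16, -1.13 for Pcdhb17, -1.68 for Pcdhb18, -1.97 for Pcdhb19, -2.14 for Pcdhb20, -1.75 for Pcdhb21 and -1.84 for Pcdhb22. Among gamma members it was -1.01 for Pcdhga1, -1.40 for Pcdhga3, -1.27 for Pcdhgb1, -1.39 for Pcdhga4, -1.04 for Pcdhgb2, -0.98 for Pcdhga6, -1.11 for Pcdhga7, -2.25 for Pcdhga8 and -1.06 for Pcdhgc4. The calls of Pcdhb14, Pcdhb7, Pcdhga1 and Pcdhgc4 were each lost in 5 or more alternative fits, with adjusted p up to 0.035, 0.038, 0.015 and 0.015.

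Against the Trf1f/f line, the log2 difference was -2.81 for Pcdhb5, -2.30 for Pcdhb7, -3.26 for Pcdhb14, -1.75 for Pcdhb15, -1.50 for Pcdhb16, -1.28 for Pcdhb17, -1.20 for Pcdhb18, -2.54 for Pcdhb19, -2.33 for Pcdhb20, -1.98 for Pcdhb21 and -1.93 for Pcdhb22. Among gamma members it was -1.20 for Pcdhga1, -1.51 for Pcdhga3, -1.31 for Pcdhga4, -1.02 for Pcdhgb2, -1.24 for Pcdhga6, -1.08 for Pcdhga7, -1.76 for Pcdhga8, -1.77 for Pcdhga12 and -1.02 for Pcdhgc4. The calls of Pcdhga8 and Pcdhgc4 were each lost in 5 alternative fits, with adjusted p up to 0.016 and 0.013.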

How the results depend on the processing

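With their own control, 0 of the 117 named results changed direction under any alternative, and 22 lost their call in some fit, 20 of them without 1 library, 17 with only the groups compared in the fit and 4 with DESeq2. With the replicate number as a block, counts of called members were 29 for Cre and 20 for TMPyP4 against Rtel1f/f +GFP, 14 between Cre and TMPyP4, 3 and 0 for Cre in RTEL1 CA and Trf1f/f, 25 and 28 for RTEL1 CA +GFP and Trf1f/f +GFP against Rtel1f/f +GFP, and 19 and 22 for the interactions, and no named call was lost under the block.

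Setting Cre and TMPyP4 against RTEL1 CA +GFP, which is not their matched control, was the choice that reversed results. For sums and single members this alternative was added after seeing the data. Against RTEL1 CA +GFP, the beta sum was 0.85 for Cre and 1.77 for TMPyP4 on the log2 scale, and the gamma sum was 0.0052 and -0.053. Members that turned upward had log2 fold changes, for Cre and for TMPyP4 in turn, of 1.14 and 1.78 (Pcdhb15), 1.35 and 1.65 (Pcdhb16), 1.25 and 2.30 (Pcdhb17), 1.19 and 1.69 (Pcdhb18), 0.21 and 1.56 (Pcdhb19), 0.43 and 1.79 (Pcdhb20), 1.12 and 1.97 (Pcdhb21), 0.51 and 1.34 (Pcdhb22), 0.47 and 0.73 (Pcdhga7), and 0.012 and 0.091 (Pcdhgb8). For Cre alone Pcdhgc4 turned (0.16), and for TMPyP4 alone Pcdhb14 (0.98), Pcdhb5 (0.047), Pcdhb7 (0.46) and Pcdhga3 (0.13). Called members numbered 9 for each, and 10 for each when the block was added too (an alternative added after seeing the data), 6 higher and 4 lower for Cre and 9 higher and 1 lower for TMPyP4. Why the control groups differ was not tested.

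Called members between Cre and TMPyP4 numbered 19 at an adjusted p of at most 0.05, 6 with only the groups compared, and 7 to 11 without 1 library, lowest without Rtel1f/f +Cre replicate 2. For Cre in RTEL1 CA they numbered 4, 0, and 0 to 1 in turn, and for Cre in Trf1f/f 1 at 0.05 and 1 with DESeq2. Without 1 library the count was 25 to 27 for Cre and 15 to 20 for TMPyP4 against Rtel1f/f +GFP. With summed TPM in place of CPM, the beta log2 ratio against Rtel1f/f +GFP was -2.12 for Cre and -2.96 for RTEL1 CA +GFP, and the gamma ratio was -0.39 for Cre, TMPyP4 and RTEL1 CA +GFP alike. From shares of CPM, the leading beta share was 32.2% in Rtel1f/f +GFP, 41.9% after Cre, 46.1% with TMPyP4, and 26.4% and 26.6% in Trf1f/f +GFP and +Cre. The effective number of beta members was then 5.39, 4.14, 3.77, 5.36, 5.12, 6.70 and 6.50 in Rtel1f/f +GFP, +Cre, +TMPyP4, RTEL1 CA +GFP, +Cre, Trf1f/f +GFP and +Cre. With members of at least 0.5 CPM, the leading share was 35.3% in Rtel1f/f +GFP and 30.1% in Trf1f/f +GFP, and the effective number was 4.57, 3.54, 4.20, 4.10, 5.88 and 5.80 in the same order without TMPyP4. The order of Rtel1f/f +GFP over Cre over TMPyP4 in effective number held for CPM shares too. Scaling by total counts shifted the median of all genes to -0.109 on the log2 scale for Cre and -0.121 for RTEL1 CA +GFP against Rtel1f/f +GFP. The alternative on promoter features was not run. Depth limits members under 0.1 CPM, where a library holds a few counts, and the division of shared gamma reads was not varied.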
